A study of Danio rerio with 31 samples.

Results

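The genes of mitosis and the cyclins were followed in whole zebrafish larvae. Members were taken by name, as the A, B, D and E cyclins, the cell cycle kinases cdk1, cdk2, cdk4 and cdk6, the aurora and polo kinases plk1 and plk4, the cdc20 and cdc25 genes, the spindle checkpoint genes of the bub and mad2l families, ttk, survivin, the centromere proteins, ndc80, nuf2 and the mitotic kinesins. The array held 58 probes of 41 such genes that could be matched through their accession, and 39 of these genes were detected, that is, clearly brighter than background on 75% or more of the time-course arrays, out of 29104 detected genes or unnamed probes in all. The cyclins ccna1 and ccnd2b did not reach that limit, with 2 and 12 of the 24 arrays above background. For wee1, bub1 and cdk4 no probe was matched, and they were not analysed here. The names also bring in aurkaip1, an interactor of aurora kinase A that is known from the mitochondrial ribosome, and mad2l2, a subunit of a translesion DNA polymerase. Neither of these is a gene of the mitotic apparatus. They stay in the counts, medians and mean phases over the 39 members and are set apart only by role.

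The comparison runs over 12 arrays of larvae in constant darkness (DD) and 12 arrays of larvae in a light-dark cycle (LD), 1 array per time point, taken every 4 h from 0 to 44 h after the first lights-on time at 5 dpf. By the study's methods all larvae were wild-type AB fish raised with lights-off 14 h after lights-on, and the DD larvae were moved to darkness before the first time point. A further set of 7 arrays compares 3 mitfa morphant samples, injected with a start-codon morpholino against the pigment cell factor mitfa, with 2 control morphant samples, injected with a standard morpholino, and 2 uninjected WT samples, all at 48 or 50 hpf. Every array was hybridized with RNA from 1 pool of whole larvae, so each value averages over all tissues, and fewer dividing cells cannot be told apart from less RNA per dividing cell.

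Progress through the cell cycle is driven by cyclins bound to cyclin-dependent kinases. D cyclins with Cdk4 or Cdk6 act in G1, cyclin E with Cdk2 starts S phase, cyclin A acts through S phase and G2, and cyclin B with Cdk1 drives entry into mitosis. Aurora and polo kinases, kinetochore proteins and kinesins then build the spindle, the checkpoint holds anaphase until every chromosome is attached, and Cdc20 directs the anaphase promoting complex to destroy cyclin B. In cycling cells the transcripts of DNA replication genes rise before those of the mitotic genes, and in zebrafish cells and larvae the timing of S phase and of mitosis is known to follow the day.

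The share of spots clearly brighter than background was 75.2% to 92.0% over the time-course arrays. Each condition filled 3 slides of 4 successive time points, and no slide held both conditions, so condition cannot be told apart from slide and scan day. The days are joined by 1 slide in each condition, which held the arrays from 16 to 28 h. Values are log2 intensities after quantile normalization, each gene read at its brightest detected probe, and the level of 1 gene is not set against that of another.

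Transcripts of most mitotic genes fell between the first and the second day of sampling, under darkness as under the light-dark cycle. In a limma fit with clock time as a block, 34 of the 39 members in DD and 33 of 39 in LD were lower on the second day (24 to 44 h) than on the first (0 to 20 h) at a Benjamini-Hochberg adjusted p below 5%, and 32 were lower in both. None was higher in either condition (0 at an adjusted p below 5%). Among all genes 11.9% in DD and 15.9% in LD were lower, 12.4% in DD and 19.6% in LD were higher, and 9.00% were lower in both. The median difference over the members was -0.98 in DD and -1.02 in LD on the log2 scale, about a halving, against 0.04 in each condition over all genes. Day and slide largely coincide, and with the slide as a fixed term 0 members passed in DD and 0 in LD. That contrast draws on the arrays of all 3 slides of a condition. It can be estimated only because the slide from 16 to 28 h held arrays of both days. The estimates were then below 0 for 37 of 39 members in DD and 33 of 39 in LD, with medians of -0.85 and -0.56. No share over all genes was counted for the fit with the slide as a fixed term, so these counts describe the members alone.

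**Figure D1:**
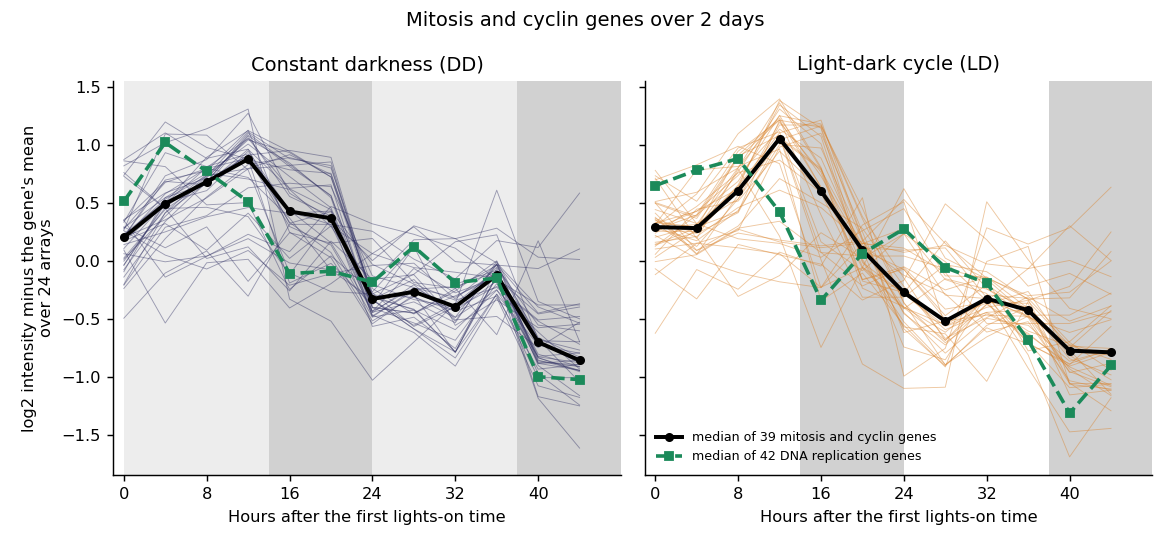
Log2 intensity of each mitosis and cyclin gene minus its mean over the 24 arrays (thin lines), against hours after the first lights-on time, for DD (left) and LD (right), with the median of the 39 members (black) and of 42 DNA replication genes (green dashes). Dark grey marks the night or subjective night and light grey the subjective day. The black median was highest at 12 h, at 0.88 in DD and 1.05 in LD, and lowest at 44 h, at -0.86 in DD and -0.79 in LD.

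The kinase Cdk1, which drives mitotic entry, had its first-day maximum at the same time as the median of the members. From 0 to 44 h its log2 intensity in DD was 12.41, 12.95, 13.34, 13.57, 13.39, 13.17, 12.11, 11.89, 12.08, 12.36, 11.61 and 11.50. In LD it was 12.59, 12.73, 13.08, 13.83, 13.59, 12.46, 11.92, 11.55, 11.79, 11.97, 11.49 and 11.36. In both conditions cdk1 was highest at 12 h, fell through the first night, and came to a lower maximum at 36 h on the second day. The median of the members was also highest at 36 h on the second day in DD (-0.13 relative to each gene's mean), whereas in LD it was highest at 24 h (-0.27, against -0.43 at 36 h). No second-day array reached any first-day array of its condition, and the difference between the days was -1.21 ± 0.20 in DD and -1.36 ± 0.20 in LD (SE, 6 arrays a day, limma adjusted p = 0.001027 and 0.000327).

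Cyclin B1, the partner of Cdk1, had a log2 intensity in DD of 12.61, 12.93, 13.13, 13.51, 13.28, 13.22, 12.06, 11.81, 11.56, 12.11, 11.39 and 11.39. In LD ccnb1 had 12.84, 12.72, 12.93, 13.57, 13.57, 12.76, 12.04, 11.50, 11.82, 11.68, 11.51 and 11.64. Its first-day maximum lay at 12 h in DD and was shared by 12 and 16 h in LD, and a second-day maximum at 36 h was seen in DD, whereas in LD the second-day values after 24 h stayed between 11.50 and 11.82. The days differed by -1.39 ± 0.19 in DD and -1.37 ± 0.19 in LD, with no overlap between them.

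Cyclin A2, which acts from S phase into G2, had a log2 intensity in DD of 12.95, 13.29, 13.26, 13.68, 13.16, 12.99, 12.13, 12.34, 12.17, 12.43, 11.63 and 11.36. In LD ccna2 had 13.10, 12.97, 13.49, 13.82, 13.24, 12.70, 12.53, 12.10, 12.24, 11.90, 11.51 and 11.54. It was highest at 12 h of the first day in both conditions, and the days did not overlap in either.

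Cdc20, the activator of the anaphase promoting complex, had a log2 intensity in DD of 11.46, 11.61, 11.80, 12.05, 12.08, 12.11, 10.92, 10.67, 10.47, 11.12, 10.37 and 10.40. In LD cdc20 had 11.61, 11.38, 11.79, 12.30, 12.42, 11.71, 10.89, 10.55, 10.80, 10.62, 10.36 and 10.69. The first-day maximum was at 20 h in DD and at 16 h in LD, later than the maximum of cdk1, and the drop to 24 h took cdc20 below all its first-day values in both conditions.

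The other mitotic kinases also had lower values on the second day. The log2 intensity of plk1, the polo kinase of spindle assembly and mitotic entry, ranged from 10.99 over a median of 11.80 to 12.89 in DD, and from 10.98 over 11.71 to 12.85 in LD. The centrosomal aurora kinase aurka ranged from 10.46 over a median of 11.07 to 12.21 in DD and from 10.35 over 11.15 to 12.47 in LD, and aurkb, of the chromosomal passenger complex, from 11.82 over 12.81 to 14.05 in DD and from 11.75 over 12.49 to 14.14 in LD. For birc5a, a survivin of the same complex, the range was 10.13 to 12.13 in DD, with a median of 11.25, and 10.11 to 12.27 in LD, with a median of 10.85. All 4 had their highest array at 12 h of the first day in LD, and plk1, aurkb and birc5a had it at 12 h in DD too, where aurka had it at 16 h. Their second-day arrays all lay below their first-day arrays in both conditions, with differences between -1.12 (plk1) and -1.30 (aurkb) in DD and between -1.06 (birc5a) and -1.27 (aurka) in LD.

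**Figure D2:**
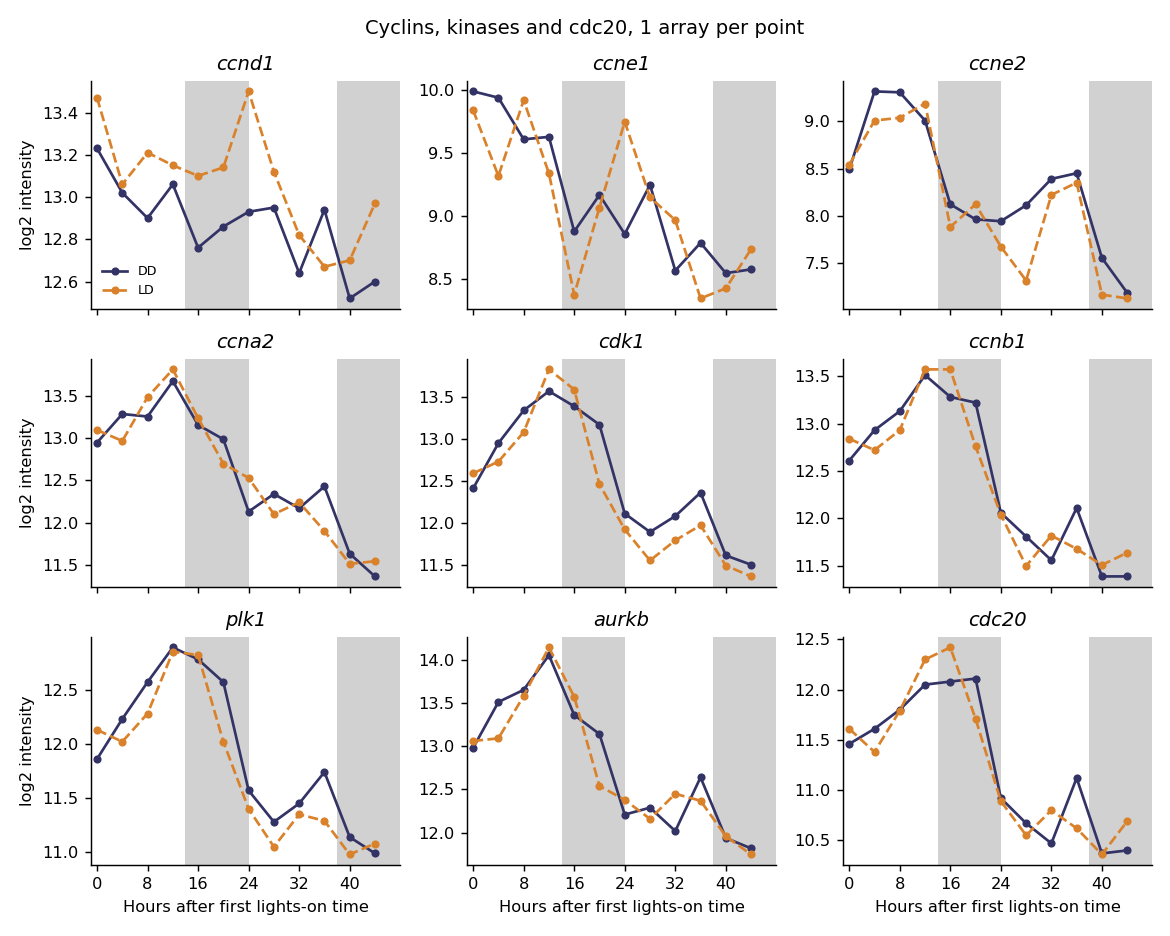
Log2 intensity of 9 members against hours after the first lights-on time, 1 array per point, DD as solid blue and LD as dashed orange lines, with the night or subjective night in grey. From ccna2 to cdc20 the first-day maximum lies between 12 and 20 h and the second day lies lower, while ccnd1 differs by -0.21 in DD and -0.23 in LD between the days.

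Separation of the days was common in the group. All 6 second-day arrays lay below all 6 first-day arrays for 21 of 39 members in DD and for 21 of 39 in LD, against 3.56% and 3.70% of all genes. A fall of at least 1 on the log2 scale was fitted for 18 members in DD and 23 in LD, against 1.68% and 1.89% of all genes. The difference between the days did not pass the test of an unequal size in DD and LD for any of the 39 members (lowest adjusted p = 0.45 by limma), against 0.0172% of all genes. At an unadjusted p below 5% it was met by 3 members, ccnd2a, ccnd3 and aurkaip1, against 9.46% of all genes.

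**Figure D3:**
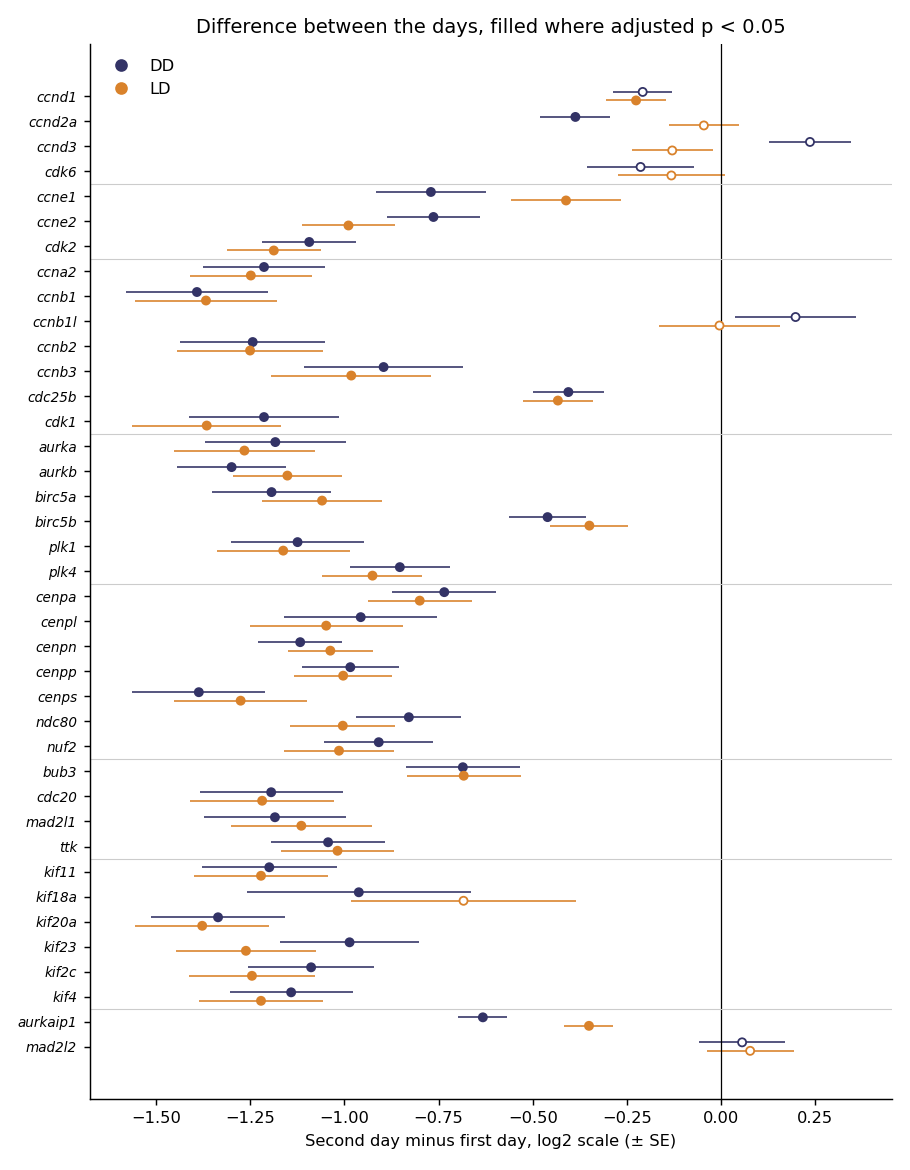
Difference between the second and the first day on the log2 scale, with its SE, for the 39 members by role, DD above LD for each gene and filled where the adjusted p was below 5%. Most of the mitotic cyclins, kinases, kinetochore genes, checkpoint genes and kinesins lie near -1. The D cyclins, cdk6, ccnb1l and mad2l2 lie between -0.39 (ccnd2a in DD, which passed) and 0.24 (ccnd3 in DD).

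Few G1 genes passed. Of the 4 detected, ccnd1, ccnd2a, ccnd3 and cdk6, 1 passed in each condition, with differences from -0.39 to 0.24 in DD and from -0.23 to -0.05 in LD. A difference of these genes from the mitotic ones was not tested. Cyclin D1 ranged from 12.52 over a median of 12.91 to 13.23 in DD and from 12.67 over 13.11 to 13.50 in LD, and its days overlapped. Its LD difference of -0.23 ± 0.08 had an adjusted p of 0.041, which was no longer below 5% (up to 0.139) without any one of the LD arrays at 8, 12, 16, 20, 32, 36, 40 or 44 h, or without any one of the DD arrays at 12, 16, 20, 36, 40 or 44 h. With clock time as a block, an array left out also takes its partner at that clock time on the other day out of the contrast. Here and below the times therefore come in pairs, such as 8 and 32 h, with the same adjusted p. In DD ccnd2a was the 1 that passed (-0.39 ± 0.09), and in LD its difference was -0.05 ± 0.09.

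All 3 genes of the G1/S step fell in both conditions. Cyclin E1 had in DD a log2 intensity of 9.99, 9.94, 9.61, 9.63, 8.88, 9.17, 8.86, 9.25, 8.57, 8.79, 8.55 and 8.58. In LD ccne1 had 9.84, 9.32, 9.92, 9.34, 8.38, 9.07, 9.75, 9.15, 8.97, 8.35, 8.43 and 8.74. It was highest within the first 8 h, lower at 16 h, and in LD high again at 24 h, and its days overlapped in both conditions. The difference was -0.77 ± 0.15 in DD and -0.41 ± 0.15 in LD (adjusted p = 0.0024 and 0.043). The LD call was lost without any one of the LD arrays at 8, 12, 20, 32, 36 or 44 h or of the DD arrays at 4, 12, 20, 28, 36 or 44 h, with an adjusted p of up to 0.151.

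Cyclin E2 had in DD a log2 intensity of 8.49, 9.32, 9.31, 9.01, 8.12, 7.96, 7.94, 8.11, 8.39, 8.45, 7.55 and 7.18. In LD ccne2 had 8.54, 9.01, 9.04, 9.19, 7.88, 8.12, 7.67, 7.31, 8.22, 8.35, 7.16 and 7.12. Unlike ccne1 it had a clear maximum between 4 and 12 h and another at 36 h in both conditions. Its days differed by -0.76 ± 0.12 in DD and by -0.99 ± 0.12 in LD, and cdk2, the partner of cyclin E, by -1.09 ± 0.13 in DD and -1.19 ± 0.13 in LD.

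Among the 7 mitotic cyclins and regulators of Cdk1, 6 fell in each condition. Besides cdk1, ccnb1 and ccna2 these were ccnb2 (-1.24 in DD, -1.25 in LD), ccnb3 (-0.90 and -0.98) and cdc25b, the phosphatase that activates Cdk1. The log2 intensity of cdc25b ranged from 8.82 over a median of 9.32 to 9.69 in DD and from 8.81 over 9.32 to 9.69 in LD, and its difference of -0.41 ± 0.09 in DD and -0.43 ± 0.09 in LD was smaller than that of cdk1, ccnb1 and ccna2, a comparison that was not tested. The exception was ccnb1l, a cyclin B1-like gene near the detection limit, with 0.20 ± 0.16 in DD and 0.00 ± 0.16 in LD.

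All 7 kinetochore and centromere genes and all 4 checkpoint and exit genes fell in both conditions, as did all 6 kinesins in DD and 5 of them in LD. At the centromere the largest difference was that of cenps (-1.39 ± 0.18 in DD, -1.27 ± 0.18 in LD) and the smallest that of the centromeric histone cenpa (-0.73 ± 0.14 in DD, -0.80 ± 0.14 in LD). The Ndc80 complex, which binds microtubules at the kinetochore, had -0.83 (ndc80) and -0.91 (nuf2) in DD and -1.004 (ndc80) and -1.01 (nuf2) in LD. Among the checkpoint genes mad2l1 and the kinase ttk had -1.18 and -1.04 in DD and -1.11 and -1.02 in LD. Of the kinesins, kif20a of cytokinesis differed by -1.33 ± 0.18 in DD and -1.38 ± 0.18 in LD, and the spindle motor kif11 by -1.20 ± 0.18 in DD and -1.22 ± 0.18 in LD.

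The kinesin that did not pass in both conditions was kif18a, which acts in chromosome alignment. In DD its difference was -0.96 ± 0.30, and the call was lost without any one of the DD arrays at 0, 4, 8, 12, 24, 28, 32 or 36 h (adjusted p up to 0.099). In LD its difference was -0.68 ± 0.30, and it passed without either of the LD arrays at 20 and 44 h (adjusted p = 0.0456). The call of the second survivin, birc5b, in LD (-0.35 ± 0.10) was lost without any one of the LD arrays at 12, 16, 20, 36, 40 or 44 h (up to 0.0676). Of the genes named alike, aurkaip1 differed by -0.63 ± 0.07 in DD and -0.35 ± 0.07 in LD, and mad2l2 by 0.06 ± 0.12 in DD and 0.08 ± 0.12 in LD.

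Where a gene was read by several probes the probes gave the same direction in each condition. The 3 probes of cdc20 had -1.19, -1.22 and -1.09 in DD and -1.22, -1.20 and -1.49 in LD, and the 2 of ttk had -1.04 each in DD. The dimmer probe of birc5a had -0.22 in DD and -0.42 in LD and did not pass, against -1.19 and -1.06 at the brighter one.

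The DNA replication genes moved with the members, but not all lists of cell division genes did so. Over the other such lists the median difference ran from -0.155 (16 G1/S regulators) to -1.12 (25 spindle and cytokinesis genes) in DD. In LD it ran from -0.207 to -1.18 for the same 2 lists. Of 42 DNA replication genes, 40 in DD and 39 in LD were lower on the second day, against 11.9% and 15.9% of all genes. In each condition 1 was higher, and the median was -0.89 in DD and -0.94 in LD. The replication clamp pcna had -1.14 in DD and -1.13 in LD, and the helicase subunit mcm5 -1.10 in DD and -1.49 in LD. Lists of other cell types were also counted. In DD and LD, 9 and 11 of 15 liver and exocrine pancreas markers were higher on the second day, against 12.4% and 19.6% of all genes. Lower were 7 and 6 of 9 erythrocyte markers and 1 and 2 of 16 markers of differentiated muscle. Of 11 markers of neural and retinal progenitors, 0 and 4 were lower, where the shares of all genes were 11.9% and 15.9%. The median differences in DD and LD were -0.176 and -0.215 for photoreceptor markers and -0.045 and 0.155 for germ cell markers. Their part in the fall of the mitotic genes was not tested.

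As normalized, no member was called for a 24-h rhythm by either test. The fall between the days loads on the 48-h period and adds to the error of a fit without a day term. For cdk1 in DD the SE of the amplitude was 0.31 without and 0.13 with a day term. The counts as normalized therefore cannot show whether the members lack a 24-h rhythm. The g test, which asks whether 1 period of 48, 24, 16, 12 or 9.6 h dominates a course, called 0 of 39 members in both conditions (limit 0.5 in each), 0 in DD and 0 in LD (limit 0.15), against 12.7%, 10% and 16.4% of all genes. The limma F test of the 24-h terms called 0 in DD and 0 in LD, against 3.15% and 11.7% of all genes. At an unadjusted p below 5% it called 2 members in DD and 5 in LD, against 14.5% and 26.9% of all genes. The 48-h period dominated for 33 members in DD and 30 in LD, against 50.2% and 49.6% of all genes, and the 24-h period for 3 in DD and 8 in LD, against 31.8% and 37.6%. Of the 42 DNA replication genes, 16 were called by the g test in both conditions.

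The highest array of each day was then located. On the first day 20 of 39 members in DD and 24 in LD had their highest value at 12 h, 2 h before the lights-off time, against 12.8% and 15.9% of all genes. On the second day 25 members in DD again had it at the same clock time, 36 h, against 12.4% of all genes. In LD 5 had it at 36 h, against 16.5%, and 20 had it at 24 h, the array nearest to the first day, against 20.9%. Among the DNA replication genes 36 of 42 in DD had their first-day maximum at 4 h and 33 their second-day maximum at 28 h, against 10.3% and 19.0% of all genes. In LD 15 had their first-day maximum at 4 h and 20 at 8 h, against 11.9% and 11.5% of all genes. On the second day in LD 32 had it at 24 h and 5 at 28 h, against 20.9% and 21.9%, so the first-day times did not recur there.

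With a straight line taken from each course, a setting planned as an alternative, more members were called. The g test called 21 of 39 members in both conditions, 19 in DD and 19 in LD, against 17%, 13.6% and 22% of all genes. These 21 included cdk1, ccnb1, ccnb2, ccne2, aurkb, plk1, plk4, cdc20, ttk, ndc80, nuf2 and all 6 kinesins, besides aurkaip1. A limma fit with such a line, added after the data had been seen, called 4 members in DD (aurkb, ccne2, plk1 and ttk) and 24 in LD, against 5.47% and 22.9% of all genes. With the mean of each day removed in place of a line, also an added setting, the g test called 16 in both conditions, 16 in DD and 11 in LD, against 27.6%, 23.4% and 33.4% of all genes. The limma test with a day term called 5 in DD and 15 in LD, against 11.6% and 28.9%. A step between the days less a straight line leaves a 24-h saw-tooth that is highest late in each day. A steady decline less the day means leaves the reverse. The part of the fall in the calls, amplitudes and phases of either setting was not tested. For ccnb1 in LD the amplitude was 0.495 with the line removed and 0.18 with day means removed.

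The mean phases placed the members after the DNA replication genes. With the line removed, the circular mean phase of the 39 members was 12.6 h after lights-on in DD and 13.1 h in LD, with mean vectors of 0.58 and 0.56, where 1 would mean a single shared phase. For the 42 DNA replication genes it was 7.83 h in DD and 4.92 h in LD, with mean vectors of 0.83 and 0.72. The members thus followed by 4.72 h in DD and by 8.13 h in LD. As normalized the members' mean phases were 8.85 h in DD and 9.10 h in LD and those of the DNA replication genes 5.78 h and 4.42 h, so that the lag was 3.07 h in DD and 4.68 h in LD. From the second cycle alone the members' mean phase was 6.45 h in DD and 4.95 h in LD, against 5.66 h and 3.54 h for the DNA replication genes. Removing the mean of each day cannot change the phases as normalized, since each day spans a full 24-h cycle. The lag over all genes of the lists therefore stayed at 3.07 h in DD and 4.68 h in LD, which is no further check. Over the genes called with day means removed, the lag was 1.92 h in DD and 0.829 h in LD. The called members had mean vectors of 0.819 (16 genes in DD) and 0.532 (11 in LD). In LD they included the G1 and S phase genes ccnd1, cdk6, ccne1, ccne2 and cdk2, besides aurkaip1, so that lag is not one of mitotic genes alone. The size of the lag thus changed with the removal of a line, the cycles used and the set of genes, and the members came after in each case. These are descriptions, since genes measured on the same arrays are no independent repeats.

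**Figure D4:**
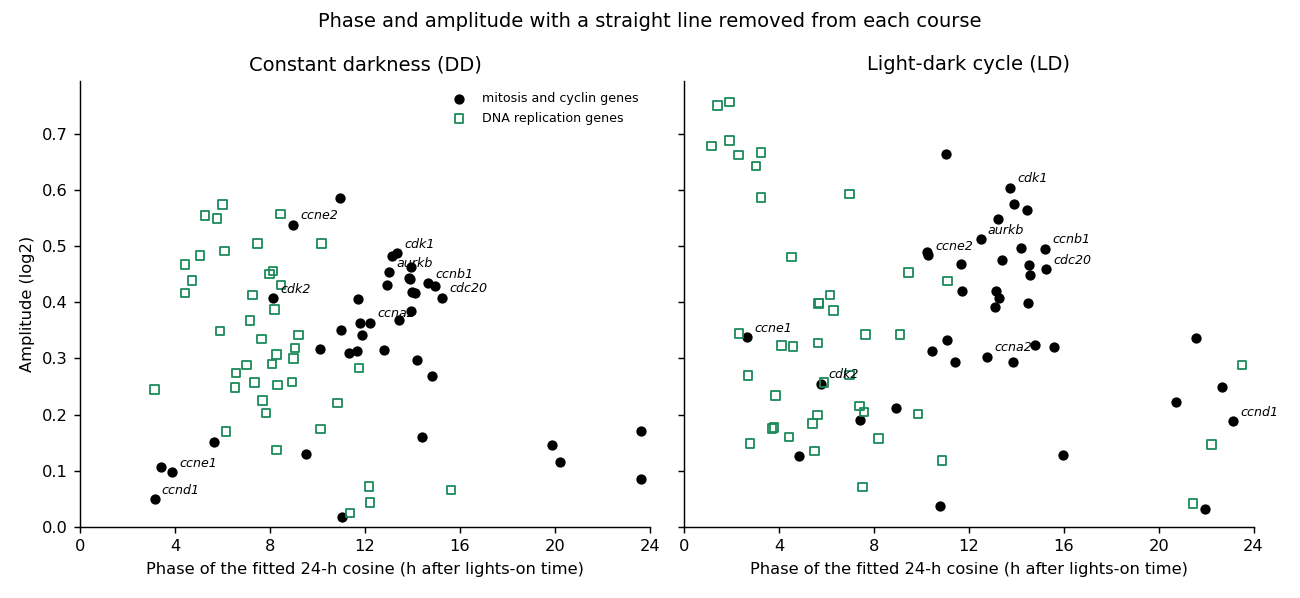
Amplitude (log2) of the fitted 24-h cosine against its phase in hours after the lights-on time, with a straight line removed from each course, for 39 mitosis and cyclin genes (black) and 42 DNA replication genes (green squares), DD left and LD right. Most mitotic genes lie between 10 and 16 h, with birc5b in both conditions, ccnb1l in DD and cdc25b and cenps in LD outside that range, and ccne1 and cdk2 lie among the replication genes.

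Within the members the phases of the S phase genes came before those of most mitotic genes, and no test of an order was run. In LD, with the line in the limma fit, ccne1 peaked at 2.86 ± 1.16 h (SE), cdk2 at 5.51 ± 1.53 h and ccne2 at 10.4 ± 0.96 h. Cyclin A2 followed at 13.1 ± 1.38 h, cdk1 at 14.04 ± 0.75 h, ccnb1 at 15.3 ± 0.86 h and cdc20 at 15.4 ± 0.94 h. The 4 late genes lie within about 2 SE of each other, so neighbours in that order do not differ beyond their error, and the amplitudes of ccne1, cdk2 and ccna2 did not pass (adjusted p = 0.078, 0.198 and 0.114). With a day term in place of the line, the LD phases were earlier and mostly less precise. They were 7.6 ± 1.7 h for ccna2, 11.6 ± 1.3 h for cdk1, 13.6 ± 2.7 h for ccnb1 and 14.1 ± 2.5 h for cdc20. None of these 4 amplitudes passed (limma adjusted p = 0.196, 0.090, 0.502 and 0.459), whereas those of ccne1 and cdk2 did (0.012 and 0.0022). Cyclin E2 then had 8.1 ± 0.8 h, so ccna2 at its brighter probe no longer came after it. As normalized, the dimmer probe of ccna2 had an LD phase of 13.4 h, against 7.6 h at the brighter one. By role, the mean phase with the line removed was 7.07 h in DD and 6.14 h in LD for the S phase group and 12 h in DD and 11.6 h in LD for kinetochore and centromere genes. It was 12.5 h in DD and 12.4 h in LD for mitotic kinases and survivin, 13 h in DD and 13.1 h in LD for kinesins, 13.9 h in DD and 14.7 h in LD for the mitotic cyclins with cdk1 and cdc25b, and 14.2 h in DD and 14.6 h in LD for checkpoint and exit genes. The mean of the mitotic cyclin group was later than those of the kinetochore genes and kinesins in both conditions. That mean gives each gene equal weight. It includes ccnb1l, near the detection limit, at 19.9 h in DD, and cdc25b at 21.96 h in LD with an amplitude of 0.03. Neither had a 24-h rhythm by limma there. The G1 group had 0.758 h in DD and 21.3 h in LD.

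The amplitude of the members was modest. Over the 39, the median amplitude with the line removed was 0.36 in DD and 0.39 in LD on the log2 scale, and for cdk1, fitted by limma with the line in the model, it was 0.55 ± 0.14 in DD (adjusted p = 0.061) and 0.69 ± 0.14 in LD (adjusted p = 0.0059). For aurkb it was 0.50 ± 0.12 in DD (adjusted p = 0.038) and 0.55 ± 0.12 in LD (adjusted p = 0.0067). With a day term in place of the line, cdk1 had 0.32 ± 0.13 in DD and 0.37 ± 0.13 in LD (limma adjusted p = 0.224 and 0.090). Aurkb then had 0.32 ± 0.12 in DD and 0.41 ± 0.12 in LD (limma adjusted p = 0.172 and 0.039). Of the G1 genes in LD with the line removed, ccnd2a had a phase of 20.7 h, ccnd1 of 23.1 h and cdk6 of 21.6 h, and ccnd3 one of 10.8 h at an amplitude of 0.037. Of these cdk6 alone passed the limma test in LD with the line in the model (amplitude 0.34 ± 0.10, adjusted p = 0.046), and differences in phase between genes were not tested.

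In the main fits no member passed a test of darkness against the light-dark cycle. These fits have no day term, so the fall between the days adds to their error and smaller differences could go unseen. The interaction of condition with the 24-h terms passed for 0 of 39 (lowest adjusted p = 0.9999 by limma) and for 0% of all genes. At an unadjusted p below 5% it was met by 0 members, against 3.45% of all genes. With the line in the model it passed for 0 of 39 members, against 0.0206% of all genes, and at an unadjusted p below 5% for 0, against 8.83%. The level differed between DD and LD for 0 members in the limma fit, and at an unadjusted p below 5% for ccnd1 and birc5b, against 20.5% of all genes, while 3.43% of all genes were higher and 3.15% lower in DD. The estimates ran from -0.22 (aurkaip1) to 0.30 (birc5b), with a median of 0.06 over the members and 0.00 over all genes. For cdk1 the difference of DD minus LD was 0.17 and for ccnb1 0.04. With the time point as a block, 3 members passed, birc5b, ccnd1 and aurkaip1, whose main estimates were 0.30, -0.21 and -0.22.

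At 48 and 50 hpf no member passed the main test of mitfa morphants against the other embryos. Since the morpholino acts on translation, the mitfa transcript is no check of the knockdown. Of 40 members detected on these 7 arrays, 0 were higher and 0 lower at a limma adjusted p below 5% against 0.732% and 0.494% of all genes, and 6 had an unadjusted p below 5%, against 22.6%. The median difference was 0.17 on the log2 scale, against -0.00 over all genes, and 33 of 40 estimates were above 0.

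The 4 largest estimates above 0 were those of ccnd2b, cdc25b, cenpp and cenpn. Cyclin D2b had a log2 intensity of 4.27, 4.55 and 4.69 in mitfa morphants, against 3.63 and 3.48 in control morphants and 4.00 and 3.97 in WT (difference 0.73 ± 0.17, limma adjusted p = 0.068). Its signal was dim, with a mean of 4.08, though above background on all 7 arrays. For cdc25b the values were 9.50, 10.34 and 9.86 in mitfa morphants, 9.74 and 9.27 in control morphants and 9.01 and 9.07 in WT (0.63 ± 0.24, adjusted p = 0.176), so 1 control morphant lay among the mitfa morphants.

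Of the members, the centromere genes cenpp and cenpn had the lowest adjusted p-values. For cenpp the values were 9.26, 9.35 and 9.45 in mitfa morphants, 8.66 and 8.70 in control morphants and 8.98 and 8.71 in WT (0.59 ± 0.12, adjusted p = 0.056), and for cenpn they were 10.22, 10.54 and 10.52 in mitfa morphants, 10.02 and 9.84 in control morphants and 9.75 and 9.80 in WT (0.57 ± 0.13, adjusted p = 0.063). The 3 mitfa morphants lay above the other 4 arrays for both genes and for ccnd2b, cenps and ccne1. The share of all genes separated in this way was not counted. With the normexp background correction cenpp and cenpn passed, and with detection required on all arrays cenpp did. Cyclin E1, next in size, had 8.05, 8.60 and 8.22 in mitfa morphants, 7.73 and 7.80 in control morphants and 7.86 and 7.70 in WT (0.52 ± 0.15, adjusted p = 0.098).

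**Figure D5:**
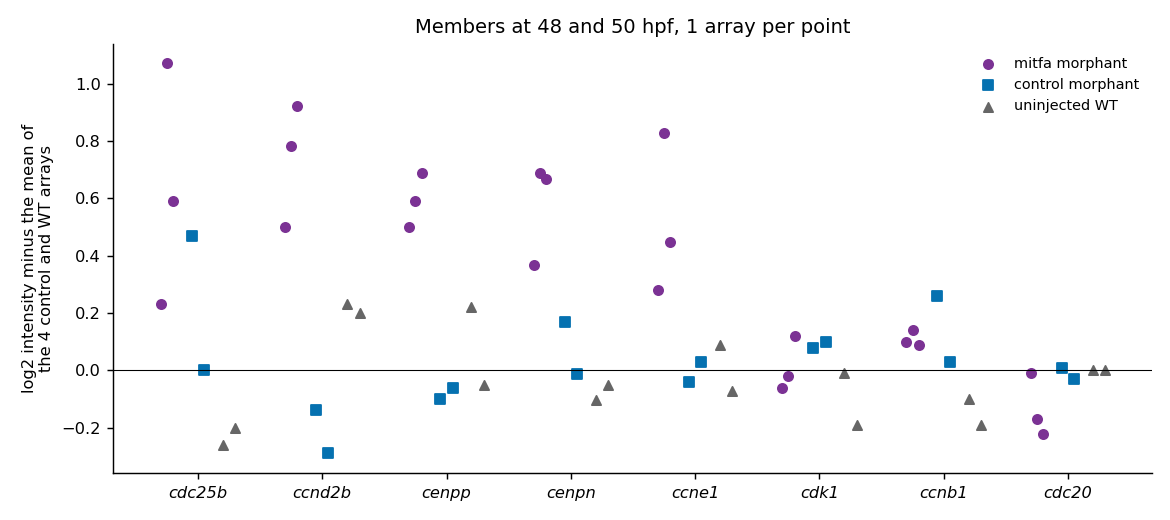
Log2 intensity of 8 members minus the mean of the 4 control and WT arrays, 1 array per point, with mitfa morphants left, control morphants in the middle and uninjected WT right for each gene. The 3 mitfa morphants lie above the other arrays for ccnd2b, cenpp, cenpn and ccne1, and for cdk1, ccnb1 and cdc20 they overlap with the others, with 1 mitfa morphant above all other arrays for cdk1.

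The estimates furthest below 0 were small, namely birc5b (-0.21 ± 0.15), ccnd2a (-0.15 ± 0.12), cdc20 (-0.13 ± 0.11) and kif4 (-0.07 ± 0.14). Cdc20 had 11.23, 11.07 and 11.02 in mitfa morphants, 11.25 and 11.21 in control morphants and 11.24 in both WT. The genes of mitotic entry were near 0, with 0.02 ± 0.12 for cdk1, 0.12 ± 0.13 for ccnb1 and 0.05 ± 0.16 for ccna2. The comparison arrays were themselves not alike, and cyclin D1, for example, had 11.77, 11.56 and 11.90 in mitfa morphants, 11.87 and 11.61 in control morphants and 11.41 and 10.82 in WT.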

How the data were processed

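Grouping followed the condition, treatment and age in the labels. Per the file headers, spot intensities had been background-subtracted and detrended on each array by Agilent Feature Extraction (version 10.5.1 per the labels, but 10.7.3.1 per the headers). The authors also deposited log2 values, quantile normalized over the time course and over the embryo arrays as 2 sets. Here log2 of the processed signal was taken, flagged outlier spots were left out (the probe's mean stood in for them in the g test and cosine fits), repeated spots were averaged and both sets were quantile normalized. Detection on 75% of the arrays in a set left 35412 probes in the time course. Of 43603 probes, 16624 matched 11482 NCBI genes by accession, and the rest kept the array's own name.

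Fisher's g test used the limits of the study's methods, limma p-values were Benjamini-Hochberg adjusted over all detected probes, and phases came from a 24-h cosine fit. Since no member was called as normalized, phases are given for all detected genes of a list, apart from the lags stated as over called genes. The members, the gene lists and the rule for genes given array by array were chosen with earlier results of these data known. That rule names the main cyclins, kinases and regulators, 3 DNA replication genes, and the 4 members with the largest difference in each direction in the morphants. Single pools of larvae are the samples, their number limits the precision, and no source says whether the replicates of a group came from separate clutches.

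As alternatives there were 75th-percentile scaling, normexp background correction on median signals, the deposited values, other detection filters, every probe, the Nyquist period, removal of a line, single 24-h cycles, slide, time point or age as a block, either control alone and each array left out. A line or a day mean in the limma fit was added after the data had been seen. The code was tested on simulated data. Software was limma 3.58.1 in R 4.3.3 for the fits, and numpy 2.4.6, pandas 2.3.3 and matplotlib 3.10.9 in Python 3.11.15 for the tables and plots.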

Additional observations from a re-analysis of the deposited data

How the results depend on the processing

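The fall on the second day kept its direction and its size of count under every scaling, background, filter and probe setting and with the slide as a random block, and leaving out any 1 array gave 33 to 34 members lower in DD and 30 to 33 in LD. With the slide as a fixed term 0 passed in DD and 0 in LD, and the LD differences of ccnd1 and ccne1 turned to 0.19 and 0.70. No member passed the test of unequal day differences in any setting run. The g test called 21 members in both conditions, 19 in DD and 19 in LD with a line removed, and 16, 16 and 11 with day means removed. Without the second 24-h cycle it called 21, 15 and 3 (bub3, cdc20 and kif23), and without the first 6 (aurkaip1, birc5b, cdk2, cenpp, cenps and nuf2), 2 (birc5b and mad2l2) and 3 (ccne1, cdc25b and nuf2). Over a single cycle the g test has only the 24-h and 12-h periods to weigh, so those counts cannot be set against counts over both cycles. With the Nyquist period it called 1 in DD (ccne2) and 1 in LD (cdk6), with normexp 1 in LD, with the deposited values 1 in LD (cdk6 in each), and with no detection filter 2 in LD (ccna1 and ccnd2b). The limma rhythm test called 4 in DD and 24 in LD with a line in the model, 5 and 15 with day means, 12 and 24 with the slide as a fixed term, and in LD 4 with the slide as a random block (cdk6, cenpp, kif23 and nuf2), 1 with no detection filter (ccnd2b) and 1 with every probe counted (birc5a). Shares over all genes were counted only for the main, line and day-mean settings. The counts in the other settings thus describe the members alone.

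Removing a line moved the mean phase of the members in DD to 12.6 h and that of the DNA replication genes in DD to 7.83 h. Leaving out 1 array gave mean phases of 6.32 to 11.3 h in DD and 5.49 to 11.5 h in LD for the members and of 4.84 to 6.52 h in DD and 3.52 to 5.02 h in LD for the DNA replication genes. From the second cycle alone the members' phases were 6.45 h in DD and 4.95 h in LD, and from the first alone 10.7 h in DD and 11 h in LD. The level test of DD against LD called 1 member with every probe counted (birc5a) and 3 with the time point as a block, and 0 without any 1 array. In the morphants normexp called 2 (cenpn and cenpp), detection on all arrays called 1 (cenpp), and leaving out any 1 array called 0. The cause of these changes was not tested. The blocks by time point and by age match arrays by sampling time, and no replicate number in the labels is shared between groups.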

Other observations

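Cell division genes outside the members' names were counted on the second day in the same way. Of 25 spindle and cytokinesis genes, 21 in DD and 22 in LD were lower, with medians of -1.12 and -1.18, and 1 was higher in DD. Of 17 cohesin, condensin and separase genes, 9 in DD and 13 in LD were lower, with medians of -0.56 and -0.98, and none was higher. Of 14 genes of the anaphase promoting complex and its ubiquitin enzymes, 6 in DD and 8 in LD were lower and 2 in each were higher, with medians of -0.22 and -0.21. Of 16 G1/S regulators, 6 in each condition were lower, and 2 in DD and 1 in LD were higher. All counts are limma calls at an adjusted p below 5%, against 11.9% of all genes lower in DD and 15.9% in LD.

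At 48 and 50 hpf 2 of 42 DNA replication genes were higher in mitfa morphants than in the other embryos and none was lower, against 0.732% and 0.494% of all genes. The median difference was 0.29, and 17 of 42 had an unadjusted p below 5%, against 22.6% of all genes.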
